A study of Mus musculus with 16 samples.

Results

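The 10 genes described here cover glycolysis (Hk1, Hk2, Pfkp, Aldoa, Pkm and Ldha), the polyol pathway and its fructose outlet (Akr1b3, Sord and Khk), and the glucose-responsive gene Txnip. They were chosen by symbol among the 31053 features of the count matrices, and all 10 were found. The symbol Aldoa stood for 2 features, of which the one with nearly all UMIs was used. On GRCm38 the genes the results turn on lie at chr7:46841475-46855627 (Ldha, plus strand), chr6:34302434-34317478 (Akr1b3, minus strand) and chr3:96557957-96561883 (Txnip, plus strand), and all 10 are annotated as protein coding. Kidney cells came from 16 mice, 1 library each, on the BTBR strain. The DN mice (BTBR ob/ob) were homozygous for the ob mutation of the leptin gene, carried in every cell of the body, which leaves them without functional leptin, obese and diabetic. The control mice were BTBR +/+, and both genotypes were of this 1 strain. By the study's methods, mice of both genotypes also carried a Rosa26 fluorescent reporter and a Cre transgene restricted to podocytes. Female and male mice were sampled at 6 and 12 weeks, with 2 mice for each genotype, sex and age. Both kidneys of a mouse were pooled, the papilla was removed, and a density step in Percoll concentrated the glomeruli, so that part of the proximal tubule (PT) was lost.

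Glucose that enters a cell is phosphorylated by hexokinases, and the glycolytic enzymes take it to pyruvate, which lactate dehydrogenase can reduce to lactate. Excess glucose can instead be reduced to sorbitol by aldose reductase, oxidised to fructose by sorbitol dehydrogenase and phosphorylated by ketohexokinase. In the kidney sorbitol also serves as an organic osmolyte of the medulla, and the PT is known for making glucose and handling fructose rather than for glycolysis. Txnip encodes a thioredoxin-binding protein that restrains glucose uptake, and its transcription is known to rise with glucose.

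The libraries held 10510855 to 125551519 unique molecular identifiers (UMIs). Replicate 1 of each of the 4 female groups used a different set of cell barcodes from the other 12 libraries (0 to 3 barcodes shared across the sets, 7 to 55 within them) and held at most 21728793 UMIs, against at least 83410397 in the others. This split is called the barcode list, and it was a term of the fits. Control male 6 weeks replicate 2 stood apart, with a median of 698 UMIs per barcode and 42.7% of its kept cells in unnamed clusters. Of 85990 cells kept, 64637 fell into 15 classes named from marker genes, by rules whose thresholds were set after the clusters were seen. Since the same markers named the classes, their levels describe the naming and do not test it. Immune-like cells, for example, had 29478 CPM (counts of UMIs scaled to the depth of the class) of their markers against 76.0 in the next class. Levels below are CPM of the UMIs summed over the cells of a class in 1 library, with libraries holding at least 10 such cells, and they compare classes or groups for 1 gene, never genes with each other. Some named clusters came almost wholly from 1 library each. They held 465 PT-like (99.6%), 232 IC-B-like (100%) and 225 CNT-like cells (100%) before doublets were removed. Their weight in the sums of that library was not tested. Classes could join more than 1 cluster. Smooth muscle and renin-like cells joined clusters of 1655 and 670 cells, PC-like cells of 4743 and 2697, and dLOH-like cells of 1168 and 534. These counts are also before doublets were removed, and the mix of clusters in each library was not tested. Of the unnamed clusters, the 3 with at least 900 cells and a median of 3000 to 20000 UMIs per cell are also described, called by their leading gene (Slc14a1, Rgcc and Slc7a12).

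**Figure D1:**
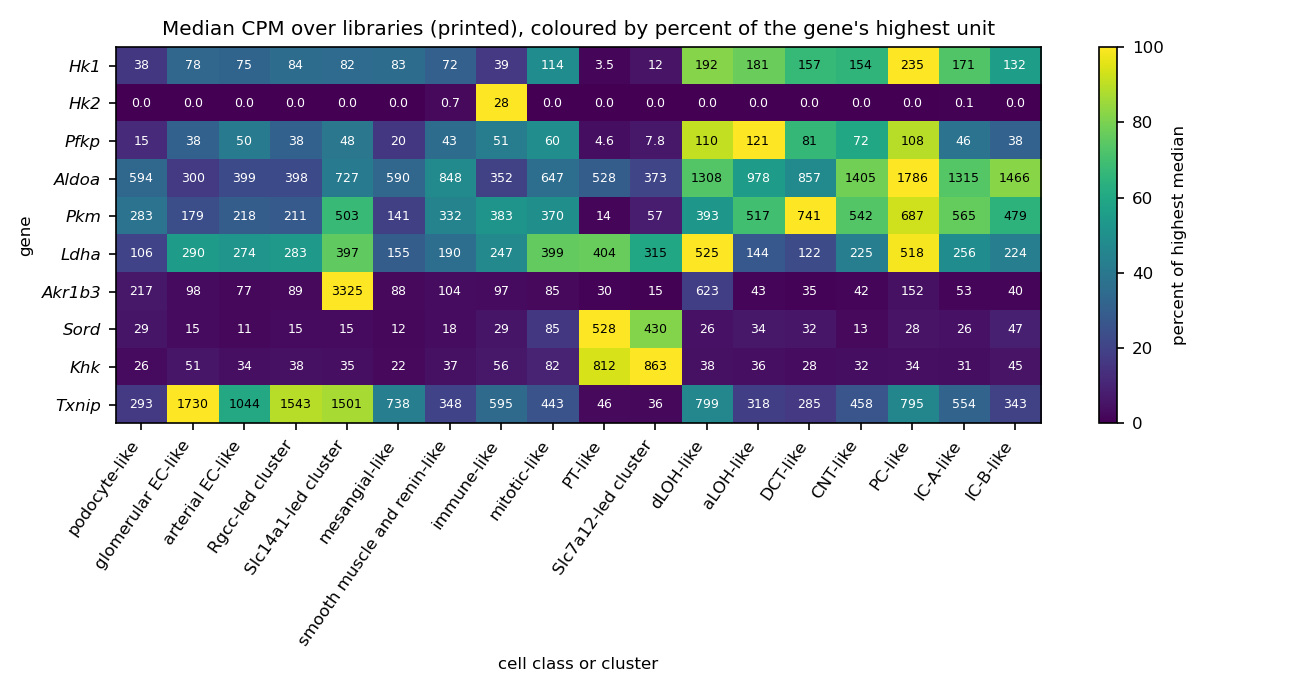
Median CPM over libraries of each of the 10 genes (rows) in 15 cell classes and 3 clusters called by their leading gene (columns). The printed number is the median and the colour is its percent of the gene's highest median. Sord and Khk were high in PT-like cells and the Slc7a12-led cluster, Akr1b3 in the Slc14a1-led cluster and dLOH-like cells, Hk2 in immune-like cells, and Txnip in endothelial cells.

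Hk1, Pfkp and Pkm had their highest medians in distal segments or the loop of Henle and their lowest in PT-like cells. Hk1, the hexokinase of most adult tissues, had a median of 235 CPM in principal cell (PC)-like cells (126 to 288 over 16 libraries), followed by descending (dLOH, 192) and ascending loop of Henle (aLOH, 181) cells. Its medians were 38.1 CPM in podocyte-like and 3.47 CPM in PT-like cells (1.20 to 11.4). Pfkp, the platelet isoform of phosphofructokinase, had its highest median in aLOH-like cells (121 CPM) and its lowest in PT-like cells (4.63 CPM). Pkm, which makes pyruvate at the last step, had 741 CPM in distal convoluted tubule (DCT)-like and 687 in PC-like cells, against 141 in mesangial-like and 14.4 in PT-like cells. The step from mesangial-like to PT-like cells held in 16 of 16 libraries (adjusted p = 0.000854, sign-flip permutation test within libraries). Neighbours in the order of classes were compared by this test over 140 pairs, of which 39 differed. The order was set by the medians of the same values that were tested, and in 11 of the pairs both medians were 0. For Hk1 the steps from PC- to dLOH-like and from dLOH- to aLOH-like cells were within the spread (adjusted p = 0.0504 and 0.724, permutation test), as were those from aLOH to dLOH and from dLOH to PC for Pfkp and from DCT to PC for Pkm. Since the classes were built from the same cells, these orders are descriptions of the classes as formed.

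Aldoa and Ldha were present in PT-like cells at levels inside the range of the other classes. Aldoa, the aldolase of glycolysis, ran from 1786 CPM in PC-like cells (1102 to 2456) to 300 CPM in glomerular endothelial (EC)-like cells, with 528 CPM in PT-like cells. Ldha, the muscle-type subunit of lactate dehydrogenase, had medians of 525 CPM in dLOH-like and 518 CPM in PC-like cells, which did not differ beyond their spread. PT-like cells followed with 404 CPM (225 to 476) and podocyte-like cells came last with 106 CPM (74.2 to 181).

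Hk2, the insulin-regulated hexokinase, was a gene of the immune-like cells in these libraries. It had a median of 27.7 CPM there, with 12.5 CPM in the lowest and 108 CPM in the highest library. All 16 libraries had more Hk2 in immune-like cells than in the next class, smooth muscle and renin-like cells, whose median was 0.711 CPM (adjusted p = 0.000854, permutation test). Over all classes and clusters only 236 Hk2 UMIs were counted. In glomerular EC-like cells none was seen among 27476681 UMIs, which allows up to 0.109 CPM by counting error alone. The genes most like Hk2 over the 15 classes were Gpr34, Dnah8 and Cd300a (Pearson's r of the class means of 0.989, 0.987 and 0.987, a description over 15 points that share libraries).

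Sord and Khk marked the PT-like cells. Sord, which oxidises sorbitol to fructose, had a median of 528 CPM there (308 to 766) and 85.1 CPM in the next class, mitotic-like cells. Khk, which phosphorylates fructose, had 812 CPM (572 to 1203) and 82.5 CPM. Each was higher in PT-like cells in 15 of 15 libraries (adjusted p = 0.000854, permutation test). Over the other 14 classes, Khk stood at 3.31% to 12.1% of its PT level. The top value was in mitotic-like cells, which were named by markers of division and can include dividing PT cells. The next was 6.52% in immune-like cells. The summed 10 PT markers stood at 0.746% to 8.41% of their PT level over the same 14 classes. That sum takes in free PT RNA and stray PT cells, but within PT-like cells it also shifted with sex and genotype, as given below. Khk was the higher of these 2 shares in 12 to 16 libraries in each of the 14 classes. The Sord share ranged from 1.94%, against 1.97% for the PT markers, in mesangial-like cells to 18.4%, against 8.41%, in mitotic-like cells, and in intercalated IC-B-like cells it was 8.13% against 0.746%. It was the higher of the 2 shares in 9 to 16 libraries in each class. How much of the signal outside the PT came from free RNA was not tested.

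Akr1b3, the mouse aldose reductase, followed another pattern. Its lowest median was in PT-like cells (30.2 CPM, 8.88 to 130), a step below DCT-like cells (35.4 CPM) that was within the spread (higher in DCT in 10 of 16 libraries, adjusted p = 0.738, permutation test). That PT median joins 22.6 CPM in females and 93.5 CPM in males. Akr1b3 was highest among the named classes in dLOH-like cells (623 CPM, 220 to 3862). Podocyte-like cells came next with 217 CPM (145 to 396), above PC-like cells in the order but not beyond the spread (152 CPM). The Slc14a1-led cluster, whose leading genes include the urea transporter Slc14a1, Aqp1 and endothelial Cldn5, had a median of 3325 CPM. Akr1b3 was itself among the 10 leading genes of that cluster, although the members were left out of the genes that formed the clusters. The enzymes that act in sequence on sorbitol were therefore highest in different classes, Akr1b3 in dLOH-like and Sord in PT-like cells.

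Txnip was highest in endothelium. The arterial EC-like class joined 2 clusters, of which the smaller (39 of 611 cells kept) was led by the fibroblast genes Dcn and Col1a1, against an endothelial name. The median of Txnip was 1730 CPM in glomerular EC-like and 1044 CPM in arterial EC-like cells (1073 CPM without the smaller cluster), a step seen in 11 of 14 libraries (adjusted p = 0.0128, permutation test). The Rgcc-led and Slc14a1-led clusters had 1543 and 1501 CPM. PT-like cells were lowest, with 46.3 CPM (22.2 to 131), below DCT-like cells (285 CPM) in 16 of 16 libraries (adjusted p = 0.000854, permutation test). Txnip moved with the barcode list as well. In glomerular EC-like cells the 4 libraries of the smaller list had 523, 571, 619 and 621 CPM, and the other 12 had 1399 to 2210 CPM.

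Over the 15 classes, the glycolytic genes of the distal segments resembled each other. Out of 12717 genes compared, Hk1 was most like Mpnd, Pkm and Slc7a6 (r = 0.962, 0.876 and 0.869), Pfkp most like Mpnd, Hspa1b and Hk1 (0.902, 0.874 and 0.867), and Pkm most like Hk1, Mpnd and Abcc1 (0.876, 0.855 and 0.828). Khk was most like Gm4131, Tfpi2 and Cyp24a1 (r = 0.976, 0.976 and 0.975), and Sord most like Zmynd10, Acot4 and Slc6a20a (0.936, 0.922 and 0.918). Txnip was most like Atrx, Arid1a and Kat6a (0.957, 0.918 and 0.913), Akr1b3 most like Etf1, Eif1a and Srrm1 (0.925, 0.901 and 0.895), Aldoa most like Smim5, Pacsin3 and Epb41l1 (0.916, 0.915 and 0.915), and Ldha most like Adss, Nup50 and Stard5 (0.890, 0.818 and 0.811). These are descriptions over 15 class means from the same libraries.

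Within the PT the early (S1 type) and late (S2-S3 type) segments were set side by side, a comparison added after the data were seen. The segments were split by marker genes on these same cells, so the values are a description with no test. Khk was higher in S2-S3-type cells in 16 of 16 libraries, with medians of 970 against 625 CPM. Txnip was higher there in 14 of 16, with 65.2 against 35.9 CPM, and Ldha in 10 of 16, with 408 against 364 CPM. In S1-type cells the medians were the higher for Pfkp (7.69 against 2.16 CPM, higher in 15 of 16 libraries), Pkm (20.6 against 10.8 CPM) and Hk1 (4.17 against 2.58 CPM). The segment medians of Aldoa (561 CPM in S1-type and 529 CPM in S2-S3-type cells), Sord (528 and 500 CPM) and Akr1b3 (31.6 and 28.4 CPM) lay close together, and Hk2 had a median of 0 in both.

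The DN and control libraries were then compared within each class and age by edgeR's quasi-likelihood test with Benjamini-Hochberg adjustment over all genes of the class. Of the 150 pairs of a gene and a class, 135 passed the filter on low counts, with Hk2 tested only in immune-like cells and Sord in 14 classes. At 12 weeks 4 of the 135 pairs (all Ldha, all higher in DN) had an adjusted p below 0.05, where 1.03% of all gene and class pairs did. A further count at an unadjusted p below 0.05 gave 33 of 135 pairs (24.4%), against 8.77% of all pairs, and DESeq2 called 6, where it called 1.27% of all pairs. At 6 weeks edgeR called 0 of the 135 pairs, against 0.271% of all pairs. The unadjusted count was then 11 (8.15%, against 6.03% of all pairs) and DESeq2 called 1, against 0.457% of all pairs. Mice that share a sex, age and replicate number deviated together, so a fit with the pair as a block was read beside this one. The labels do not state a pairing, and in females the number also divides the barcode lists. The blocked fit called 14 pairs at 12 weeks, where it called 3.27% of all pairs, and 4 at 6 weeks, against 1.34%.

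Ldha was higher in DN than in control in all 15 classes at 12 weeks, with log2 fold changes from 0.16 to 1.21 (median 0.39) and an unadjusted p below 0.05 in 10 of them. The median over all gene and class pairs was 0.0. The classes come from the same libraries, so counts of classes with 1 direction, here and below, are not independent results. The calls were in aLOH-, PC-, connecting tubule (CNT)- and smooth muscle and renin-like cells. The 250 bases before the Ldha start site that RefSeq gives on GRCm38.p6 (chr7:46845554-46845803, plus strand) are shown because Ldha is the gene these calls rest on. The capitals mark the E-box CACGTG, present on both strands at each site, whose letters overlap the hypoxia response core ACGTG.

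Ldha promoter: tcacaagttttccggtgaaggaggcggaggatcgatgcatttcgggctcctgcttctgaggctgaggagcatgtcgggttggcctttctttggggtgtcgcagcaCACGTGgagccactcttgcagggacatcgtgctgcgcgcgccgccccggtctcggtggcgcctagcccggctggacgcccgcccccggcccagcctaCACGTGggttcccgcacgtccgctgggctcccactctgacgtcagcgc

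The E-box occurs in 7.15% of 32851 promoter windows of 300 bases, and the core (ACGTG or GCGTG on either strand) in 43.8%. Ldha had 2 E-boxes and 7 core matches in its window, Khk had 1 E-box, and promoter entries were found for 9 of the 10 genes, all but Akr1b3.

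In aLOH-like cells Ldha had 114, 99.6, 128 and 92.5 CPM in the 4 control libraries at 12 weeks (female replicates 1 and 2, then male replicates 1 and 2). The DN libraries had 306, 178, 351 and 145 CPM in the same order. Every DN library was above every control library, and DN was higher by a log2 fold change of 1.21 ± 0.24 (SE, n = 4 and 4, edgeR adjusted p = 0.0391). In PC-like cells, the water- and sodium-handling cells of the collecting duct, control had 355, 372, 388 and 308 CPM and DN had 880, 578, 960 and 509 CPM. Again the groups did not overlap (1.13 ± 0.27, SE, edgeR adjusted p = 0.0492). In CNT-like cells control had 181, 199, 179 and 147 CPM and DN had 368, 301, 355 and 279 CPM, without overlap (0.84 ± 0.20, SE, edgeR adjusted p = 0.0358). In smooth muscle and renin-like cells control had 116, 144, 170 and 106 CPM and DN had 303, 243, 218 and 184 CPM, again without overlap (0.79 ± 0.20, SE, edgeR adjusted p = 0.0308). How many other genes of these classes separated in this way was not counted. Of all genes tested at 12 weeks, 0.377% were called in aLOH-, 1.45% in PC-, 1.76% in CNT- and 1.65% in smooth muscle and renin-like cells.

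These 4 calls lay near the threshold. With the same-numbered pair as a block they stood at adjusted p = 4.52e-05 in aLOH-, 0.00235 in PC-, 0.00562 in CNT- and 0.0014 in smooth muscle and renin-like cells, and Ldha was also called in IC-B-like (0.38 ± 0.10, SE, edgeR adjusted p = 0.038) and mesangial-like cells (0.34 ± 0.10, SE, edgeR adjusted p = 0.0257), and in the Rgcc-led cluster (0.62 ± 0.15, SE, edgeR adjusted p = 0.0273, main fit 0.362). Without the barcode-list term, or on the 12 libraries of the larger list alone, 0 of the 4 was called, and leaving out any 1 library kept the sign but lost a call in 6 to 10 of 16 fits for each class. The highest adjusted p when 1 library was left out was 0.331 in aLOH-like (without DN male 12 weeks replicate 1), 0.281 in PC-like (without DN female 12 weeks replicate 1), 0.18 in CNT-like (without control male 12 weeks replicate 2) and 0.253 in smooth muscle and renin-like cells (without DN female 12 weeks replicate 2), all by edgeR.

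**Figure D2:**
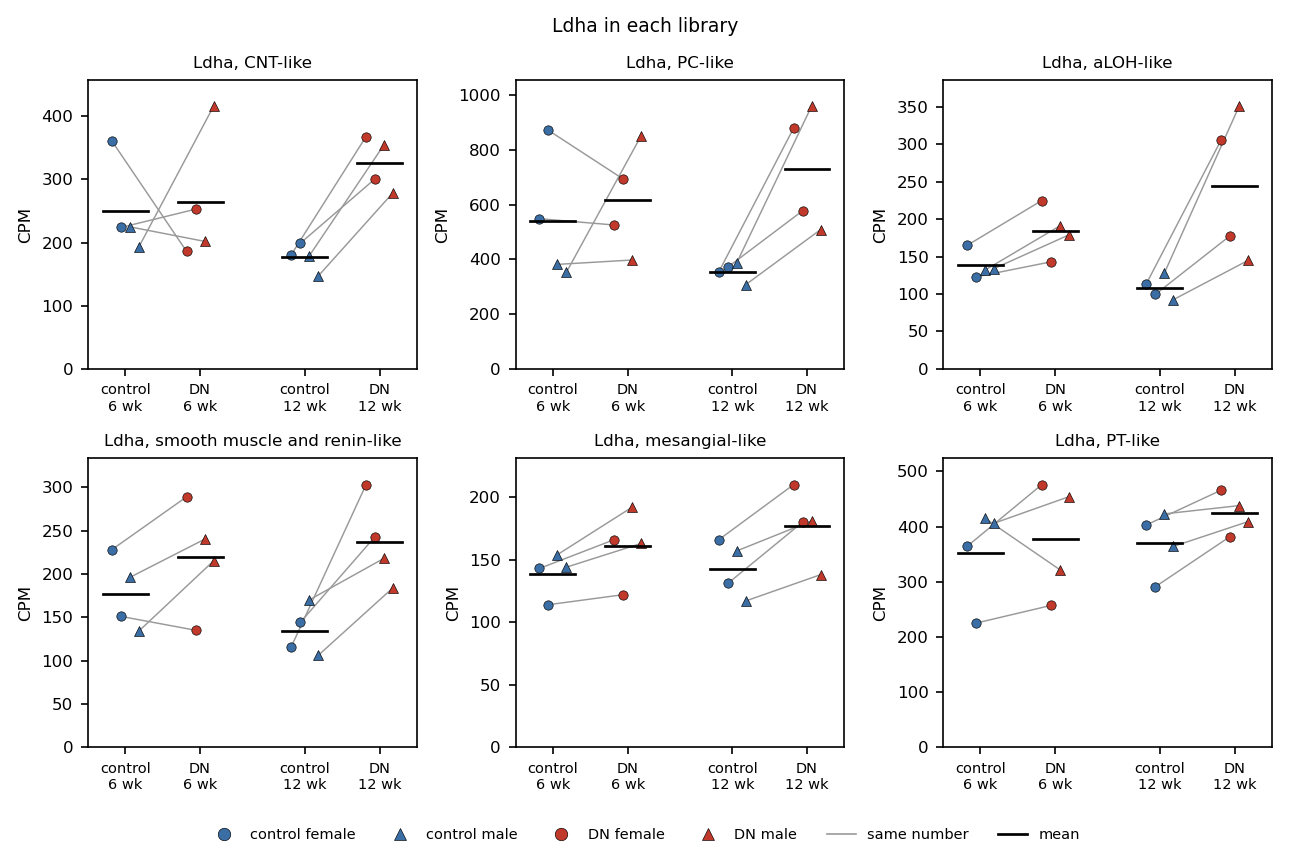
Ldha in CPM (vertical axes, from 0) in each library by genotype and age, for 6 classes. Circles are female and triangles male mice, grey lines join DN and control libraries with the same sex, age and replicate number, and black bars are means. At 12 weeks the DN points lie above all control points in CNT-, PC-, aLOH- and smooth muscle and renin-like cells and overlap them in mesangial- and PT-like cells.

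Markers of PT cells and of dissociation were read beside Ldha. In aLOH-like cells at 12 weeks the summed PT markers were 281 to 1076 CPM in control and 113 to 1059 CPM in DN, and the 18 dissociation stress genes summed to 1142 to 1641 CPM in control and 926 to 1998 CPM in DN. In PC-like cells the stress sum was 3380 to 5653 CPM in control and 3406 to 5182 CPM in DN. In CNT-like cells it was 1394 to 1869 and 1625 to 2942 CPM. In smooth muscle and renin-like cells it was 4636 to 11017 and 4471 to 8315 CPM. The ranges overlapped in all 4, but in CNT-like cells the median of the stress sum was 1499 CPM in control and 2666 CPM in DN, and the 17 stress genes tested there had a median log2 fold change of 0.57. The median PT-marker sums were lower in DN, with 416 and 163 CPM in CNT-like, 300 and 105 CPM in PC-like, 669 and 370 CPM in aLOH-like and 742 and 185 CPM in smooth muscle and renin-like cells. Their median was lower in DN in PT-like cells too, so the sum does not gauge free PT RNA alone. Of 249 stress gene and class pairs, 12 were called higher and 0 lower at 12 weeks, where 0.694% of all pairs were called higher. Single stress genes rose with Ldha, among them Ier3 in CNT-like (1.96 ± 0.33, SE, edgeR adjusted p = 0.00224) and PC-like cells (1.85 ± 0.35, SE, edgeR adjusted p = 0.00974) and Dusp1 in aLOH-like cells (1.52 ± 0.28, SE, edgeR adjusted p = 0.0268). Fos rose in glomerular EC-like and mesangial-like cells, and Socs3 in glomerular EC-like cells (1.48 ± 0.26, SE, edgeR adjusted p = 0.00861). At 6 weeks 2 stress pairs were called (0.271% of all pairs), Atf3 in smooth muscle and renin-like and Egr1 in podocyte-like cells. The part of this in the Ldha result was not tested.

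At 6 weeks Ldha was higher in 12 of 15 classes and passed the test in none (median log2 fold change 0.22). In aLOH-like cells it was higher in DN in all 4 same-numbered pairs, with control libraries at 123 to 165 CPM and DN libraries at 143 to 225 CPM, which overlap (0.41 ± 0.24, SE, edgeR adjusted p = 0.895). In PC-like cells the ranges were 353 to 872 and 398 to 852 CPM. The DN effect at 12 weeks was larger than at 6 weeks by 0.80 ± 0.34 in aLOH-, 0.82 ± 0.39 in PC- and 0.63 ± 0.29 in CNT-like cells (SE, edgeR adjusted p = 1.0 in each), so a difference between the ages was not shown. In PT-like cells, Ldha differed by 0.16 ± 0.15 at 12 weeks (SE, edgeR adjusted p = 0.823), with 291 to 423 CPM in control and 382 to 466 CPM in DN.

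The aLOH-like cells, which reabsorb salt in the thick limb, also had DN values of Pkm, Pfkp and Aldoa above control, which at 12 weeks passed the blocked but not the main test. Hk1 differed there by −0.01 ± 0.19 at 12 weeks (SE, edgeR adjusted p = 1.0). Pkm was 500, 458, 493 and 412 CPM in the control and 563, 537, 573 and 519 CPM in the DN libraries at 6 weeks. At 12 weeks it was 360, 448, 514 and 440 CPM in control and 648, 566, 817 and 556 CPM in DN. Every DN library was above every control library at each age. Pfkp showed the same separation, with 116 to 123 CPM in control and 137 to 185 CPM in DN at 6 weeks, and 85.3 to 111 against 119 to 206 CPM at 12 weeks. Aldoa separated only at 12 weeks, with 772 to 989 CPM in control and 1091 to 1250 CPM in DN. How many other genes of these cells separated in this way was not counted. At 12 weeks the log2 fold changes were 0.59 ± 0.19 for Pkm, 0.64 ± 0.18 for Pfkp and 0.42 ± 0.17 for Aldoa, and none passed the main test (SE, edgeR adjusted p = 0.256, 0.167 and 0.409). With the pair as a block all of them passed at 12 weeks (Pkm 0.57, adjusted p = 0.00467, Pfkp 0.62, adjusted p = 0.00638, and Aldoa 0.43, adjusted p = 0.0199, edgeR). With cells limited to 20% mitochondrial UMIs the differences were 0.81 for Pkm, 1.49 for Pfkp and 0.72 for Aldoa, all called (edgeR adjusted p = 0.0264, 0.000901 and 0.037), and without DN male 12 weeks replicate 1 Pfkp was 0.41 (edgeR adjusted p = 0.745).

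Pkm stood higher in DN in 13 of 15 classes at 12 weeks and 12 of 15 at 6 weeks. In podocyte-like cells, the filtration cells of the glomerulus, control libraries at 12 weeks had 283, 232, 245 and 232 CPM and DN libraries 476, 336, 395 and 269 CPM. DN was the higher in all 4 pairs at 12 weeks and in all 3 pairs at 6 weeks, though the ranges overlapped at both ages. The blocked fit called Pkm there at 12 weeks (0.53 ± 0.13, SE, adjusted p = 0.0174) and at 6 weeks (0.58 ± 0.14, SE, adjusted p = 0.0142), and the main fit did not (0.54 and 0.55, edgeR adjusted p = 0.245 and 0.296). DN female 12 weeks replicate 1 rested on 11 podocyte-like cells. The dissociation stress genes stood higher in DN in these cells, the median difference over the 15 genes tested being 0.87 (log2) at 6 weeks and 0.74 at 12 weeks. Their sum was 2816 to 4667 CPM in control and 4125 to 7260 CPM in DN at 6 weeks, and 2917 to 3760 against 3133 to 9120 CPM at 12 weeks, and their part in the Pkm difference was not tested. In smooth muscle and renin-like cells the blocked fit also called Pkm at 12 weeks (0.50 ± 0.13, SE, edgeR adjusted p = 0.018, main fit 0.108), with DN higher in 4 of 4 pairs.

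Hk1 did not move in 1 direction. It was higher in DN in 4 and lower in 11 of 15 classes at 12 weeks, with log2 fold changes of −0.84 to 0.44, and had no call at either age. Hk2 in immune-like cells had 18.7, 26.9, 27.7 and 14.1 CPM in control and 40.4, 43.7, 12.5 and 84.6 CPM in DN at 6 weeks, with overlap (0.78 ± 0.64, SE, edgeR adjusted p = 1.0). At 12 weeks the difference was 0.06 ± 0.54 (SE, edgeR adjusted p = 1.0).

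At 12 weeks the DN and control values of Akr1b3 did not overlap in dLOH-like cells or in the Slc14a1-led cluster, though the main test passed in neither. In dLOH-like cells control libraries had 339, 586, 561 and 248 CPM and DN libraries 722, 3862, 1327 and 755 CPM. No DN library was as low as any control library, and the log2 fold change was 1.66 ± 0.42 (SE, edgeR adjusted p = 0.155). In the Slc14a1-led cluster control libraries had 732, 3346 and 3304 CPM and DN libraries 6080, 7862 and 6442 CPM, again without overlap (1.83 ± 0.44, SE, edgeR adjusted p = 0.0801). The number of other genes that separated like this was not counted in either. The blocked fit called both, with 1.70 ± 0.38 in dLOH-like cells (SE, edgeR adjusted p = 0.0462) and 1.93 ± 0.37 in the Slc14a1-led cluster (SE, edgeR adjusted p = 0.0125, 2 pairs with both libraries). The Slc14a1-led values included 10 cells in DN female 12 weeks replicate 2 and 22 in control male 12 weeks replicate 2. The libraries of that cluster under the minimum of 10 cells were not used, and they went the other way, with 1393 CPM in control female 12 weeks replicate 2 (9 cells) and 536 CPM in DN male 12 weeks replicate 2 (8 cells). The stress genes summed to 4530 to 7455 CPM in control and 6019 to 11795 CPM in DN in that cluster at 12 weeks (median log2 fold change 0.85), and to 4795 to 8661 and 4633 to 6348 CPM in dLOH-like cells (−0.15). Their part in the Akr1b3 difference was not tested. In PC-like cells Akr1b3 was 95.0, 87.1, 170 and 88.1 CPM in control and 172, 140, 271 and 105 CPM in DN, higher in 4 of 4 pairs, and was called with the block (0.69 ± 0.20, SE, edgeR adjusted p = 0.0433) but not without (0.76, adjusted p = 0.481). At 6 weeks 1 control library, female replicate 2, had 1804 CPM in dLOH-like and 958 CPM in PC-like cells, above all other controls. The dLOH-like difference at 6 weeks was 1.09 ± 0.45 (SE, edgeR adjusted p = 1.0). The papilla, the innermost medulla, had been removed before dissociation.

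**Figure D3:**
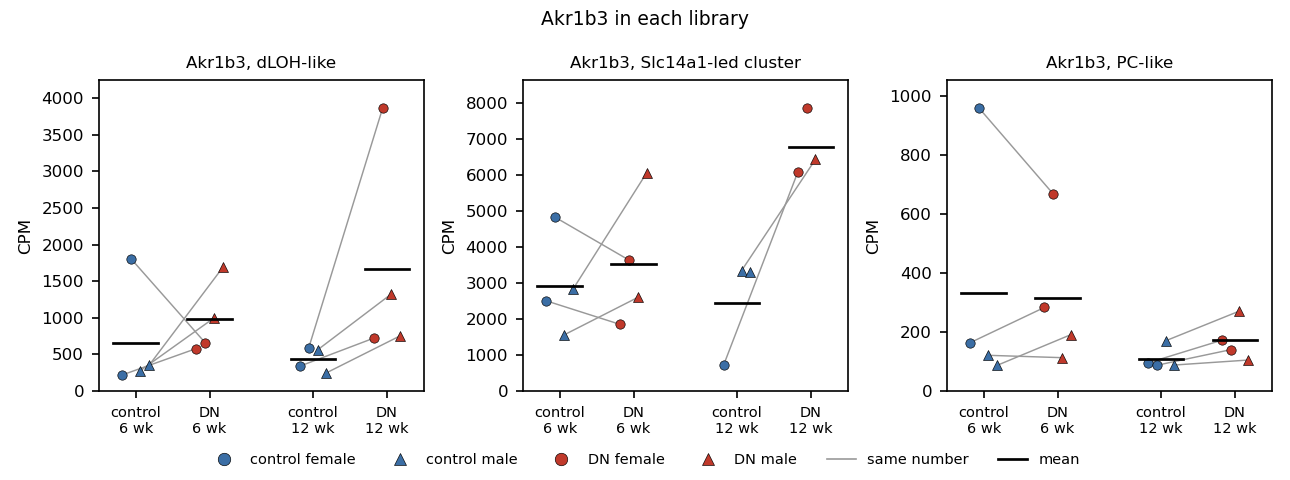
Akr1b3 in CPM (vertical axes, from 0) in each library by genotype and age in dLOH-like cells, the Slc14a1-led cluster and PC-like cells. Symbols, lines and bars are as in the plot of Ldha by library. At 12 weeks all DN points lie above all control points in dLOH-like cells and in the Slc14a1-led cluster, and at 6 weeks control female replicate 2 (1804 CPM in dLOH-like and 958 CPM in PC-like cells) lies far above the other controls.

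Of the other genes of the osmotic response list (8 genes, Akr1b3 not among them), 3 had calls in the 15 classes at 12 weeks, all higher in DN and 4 of 95 pairs in all, where 1.03% of all pairs were called (0.694% counting only higher ones). The taurine transporter Slc6a6 rose in podocyte-like (1.59 ± 0.24, SE, edgeR adjusted p = 0.000679) and glomerular EC-like cells (0.75 ± 0.15, SE, edgeR adjusted p = 0.0208), S100a4 rose in smooth muscle and renin-like cells (3.24 ± 0.37, SE, edgeR adjusted p = 1.51e-06), and the kinase Sgk1 rose in dLOH-like cells (1.77 ± 0.36, SE, edgeR adjusted p = 0.0423). At 6 weeks 2 of the 95 pairs were called, where 0.271% of all pairs were, Slc6a6 in podocyte-like (1.66 ± 0.25, SE, edgeR adjusted p = 0.00262) and S100a4 in smooth muscle and renin-like cells (1.57 ± 0.30, SE, edgeR adjusted p = 0.011). The median over the list's pairs at 12 weeks was 0.09, and 0.0 over all pairs.

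Txnip was lower in DN in 12 of 15 classes at 6 weeks (median log2 fold change −0.26) and in 11 of 15 at 12 weeks (−0.15). The main fit called none of these. The Txnip start site is preceded by the sequence below (RefSeq, GRCm38.p6, chr3:96557707-96557956, plus strand, 250 bases), shown because it holds a match to the carbohydrate response element, searched as a pair of CACGNG motifs spaced by 5 bases of any kind. The match is in capitals and begins 85 bases before the start.

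Txnip promoter: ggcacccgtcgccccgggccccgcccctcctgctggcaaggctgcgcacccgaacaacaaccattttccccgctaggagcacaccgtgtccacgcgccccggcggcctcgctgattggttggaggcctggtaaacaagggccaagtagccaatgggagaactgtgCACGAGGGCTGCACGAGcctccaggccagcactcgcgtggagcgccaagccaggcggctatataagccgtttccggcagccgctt

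This element, searched on both strands, was found in 16 of 32851 promoter windows (0.0487%) and in no window of the other 8 genes with a promoter entry.

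In DCT-like cells Txnip had 203, 782, 356 and 283 CPM in the control and 112, 318, 198 and 177 CPM in the DN libraries at 6 weeks. DN was lower in all 4 same-numbered pairs although the ranges overlapped, with the lowest value of each genotype in the library of the smaller barcode list and the highest in female replicate 2. The log2 fold change was −0.93 ± 0.28 (SE, edgeR adjusted p = 0.657), and −0.93 ± 0.11 with the pair as a block (SE, edgeR adjusted p = 8.16e-05). Over all alternatives the value ran from −1.14 to −0.48. With 1 library left out, the adjusted p was highest without control female 6 weeks replicate 2 (edgeR adjusted p = 1.0). At 12 weeks DN was lower in 3 of 4 pairs and higher in 1, with 247 to 427 CPM in control and 187 to 339 CPM in DN (−0.24 ± 0.28, SE, edgeR adjusted p = 0.999). In PC-like cells control had 358, 915, 1526 and 1021 CPM and DN had 242, 871, 719 and 480 CPM at 6 weeks. At 12 weeks control had 714, 983, 1295 and 1400 CPM and DN had 570, 648, 874 and 691 CPM. DN was lower in 4 of 4 pairs at each age, and the blocked fit called both (−0.68 ± 0.14, adjusted p = 0.0158, and −0.56 ± 0.14, adjusted p = 0.0195, SE, edgeR), where the main fit called neither (adjusted p = 0.604 and 0.413). Over all alternatives the difference in PC-like cells ran from −1.01 to −0.44 at 6 weeks and from −0.80 to −0.38 at 12 weeks. With 1 library left out, the adjusted p at 6 weeks was highest without control male 6 weeks replicate 1 (edgeR adjusted p = 1.0). At 12 weeks it was highest without DN female 12 weeks replicate 2 (edgeR adjusted p = 0.654). In aLOH-like cells control had 191, 854, 432 and 430 CPM and DN had 106, 319, 419 and 318 CPM at 6 weeks, again lower in 4 of 4 pairs (blocked −0.66 ± 0.15, SE, edgeR adjusted p = 0.0362, main fit 0.549). Over all alternatives the value there ran from −0.91 to −0.20, the latter with cells limited to 20% mitochondrial UMIs, and its adjusted p was 1.0 without control female 6 weeks replicate 2 (edgeR). At 12 weeks it was lower in 4 of 4 pairs and not called by the main fit (−0.55 ± 0.24, SE, edgeR adjusted p = 0.49). In DCT-like cells at 6 weeks the PT-marker sum had medians of 486 CPM in control (52.9 to 10590) and 114 CPM in DN (61.6 to 281). The stress genes at 6 weeks had median log2 fold changes of 0.10 in DCT-, −0.27 in PC- and 0.24 in aLOH-like cells. Their part in the Txnip differences was not tested.

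**Figure D4:**
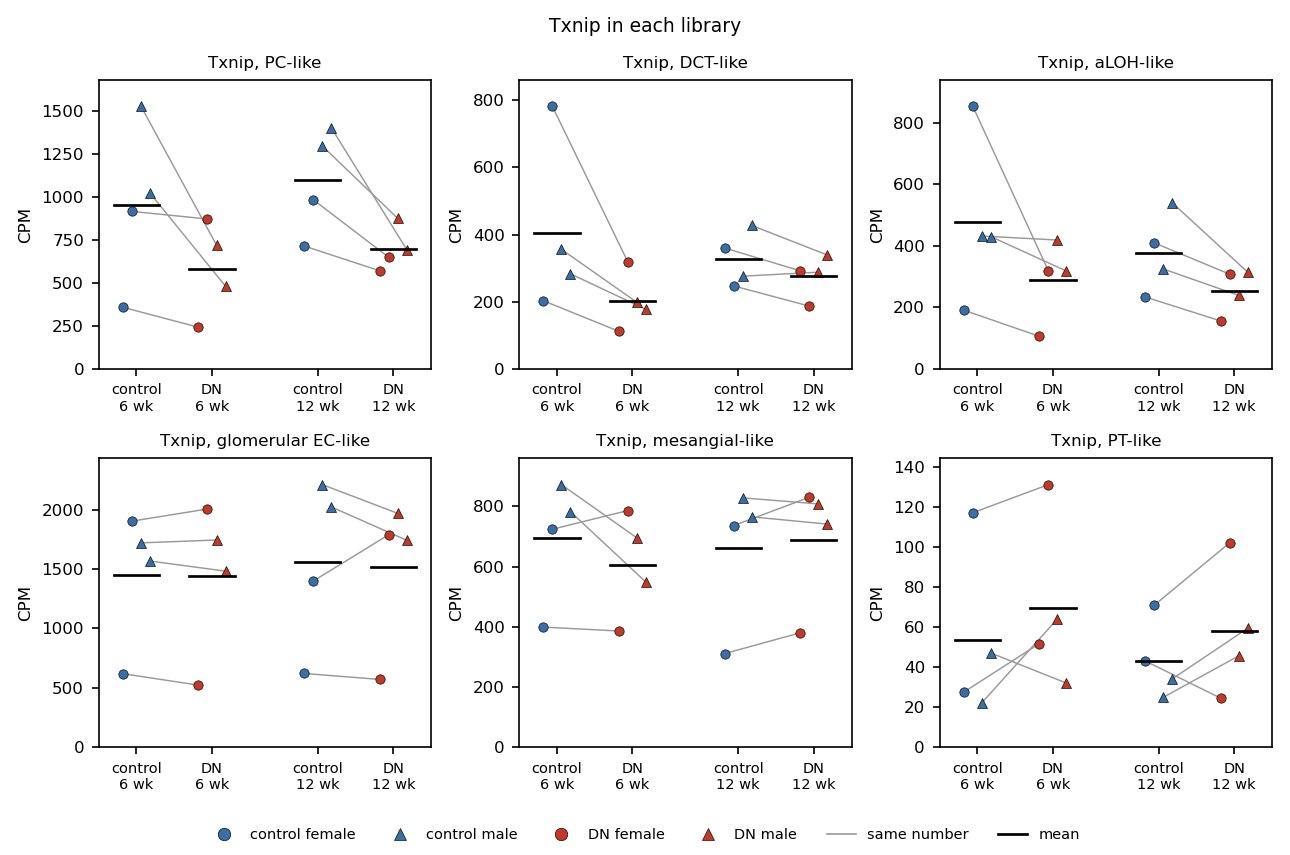
Txnip in CPM (vertical axes, from 0) in each library by genotype and age for 6 classes. Symbols, lines and bars are as in the plot of Ldha by library. The grey lines between same-numbered libraries descend from control to DN in all 4 pairs in PC- and aLOH-like cells at both ages and in DCT-like cells at 6 weeks, and run in mixed directions in glomerular EC-, mesangial- and PT-like cells.

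In mitotic- and CNT-like cells Txnip at 6 weeks had log2 fold changes of −0.70 ± 0.32 and −0.51 ± 0.31 (SE, edgeR adjusted p = 1.0 in each). In dLOH-like cells it was 0.23 ± 0.22 at 6 weeks and −0.45 ± 0.22 at 12 weeks (SE, edgeR adjusted p = 1.0 and 0.766). In glomerular EC-like cells, where it was highest, the difference was −0.07 ± 0.14 at each age (SE, edgeR adjusted p = 1.0), and in mesangial-like cells −0.18 ± 0.14 and 0.12 ± 0.13 (SE, edgeR adjusted p = 0.705 and 0.746). In PT-like cells the sign was positive (0.47 ± 0.29 at 6 weeks and 0.35 ± 0.29 at 12 weeks, SE, edgeR adjusted p = 0.704 and 0.77), with 22.2 to 117 CPM in control and 32.0 to 131 CPM in DN at 6 weeks. Of the 12 ChREBP and Mondo factors, relatives and thioredoxin genes that were listed with Txnip, none was called in the 15 classes at 6 weeks (12 of 141 pairs at an unadjusted p below 0.05, against 6.03% of all pairs) or at 12 weeks (11 of 141, against 8.77%). In the Slc7a12-led cluster 1 of the 7 tested there was called higher at 12 weeks, where 0.525% of all its genes were.

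Khk and Sord in the PT differed little between the genotypes. Khk in PT-like cells had 861, 800, 812 and 842 CPM in control and 1028, 813, 907 and 1015 CPM in DN at 12 weeks (0.13 ± 0.12, SE, edgeR adjusted p = 0.827). Sord had 375, 631, 617 and 615 CPM in control and 308, 766, 551 and 725 CPM in DN (−0.02 ± 0.12, SE, edgeR adjusted p = 0.999). Pfkp, at its lowest level in these cells, was lower in DN at 6 weeks (−1.06 ± 0.30, SE, edgeR adjusted p = 0.15) and at 12 weeks (−0.79 ± 0.28, SE, edgeR adjusted p = 0.277), without passing the test. The DN effect in PT-like cells was set against that in mesangial-like cells for each gene by an exact permutation test within sex and age (1296 permutations, smallest possible p = 0.00154). The permutations did not keep the same-numbered pairs together. A difference was called for 0 of the 10 genes, and Sord had the smallest p (difference 0.69 on the log2 scale, exact permutation p = 0.0231, adjusted p = 0.231 over the 10 genes). Nearly all of that difference lay in mesangial-like cells (−0.66, against 0.03 in PT-like cells), where Sord stood at the share of the PT markers. The sum of those markers had medians of 816 CPM in control and 189 CPM in DN at 6 weeks in mesangial-like cells. At 12 weeks its medians were 661 and 211 CPM, and the part of free PT RNA was not tested.

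Between 6 and 12 weeks edgeR called 0 of 135 pairs in control mice, where 0.00656% of all pairs were called, and 0 of 135 in DN mice, where 0.00146% were. At an unadjusted p below 0.05 there were 10 pairs in control (4.42% of all pairs) and 6 in DN (4.63%), and DESeq2 called 0 in either (0.035% and 0.0379% of all pairs). The DN effect differed between the ages for 0 of 135 pairs (0.00146% of all pairs, DESeq2 0, against 0.00292%), with 11 at an unadjusted p below 0.05 against 2.29% of all pairs.

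Aldose reductase in the late PT was higher in males than in females. This comparison of males with females was added after the data were seen. In S2-S3-type cells Akr1b3 had 9.22, 14.6, 11.5 and 6.02 CPM in the 4 control females (6 weeks replicates 1 and 2, then 12 weeks replicates 1 and 2). The control males had 179, 105, 172 and 147 CPM in the same order, a log2 fold change of 4.22 ± 0.40 (SE, edgeR adjusted p = 3.67e-06, where 18.2% of all genes were called). The groups were far apart, and the call held in 16 of 16 fits that left out a library. The DN females had 23.3, 15.4, 18.7 and 19.3 CPM and the DN males 33.4, 88.3, 99.5 and 98.5 CPM. Every DN male was above every DN female (2.31 ± 0.37, SE, edgeR adjusted p = 0.00242, where 3.09% were called), a call that was lost only without DN female 12 weeks replicate 2 (adjusted p = 0.0625). In S1-type cells control females had 8.42, 41.5, 27.5 and 19.0 CPM and control males 37.1, 45.9, 28.3 and 27.5 CPM, which overlap, and the sexes did not differ by the test in either genotype.

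Among the males, Akr1b3 in S2-S3-type cells was lower in DN than in control in every library (33.4 to 99.5 against 105 to 179 CPM), by −1.12 ± 0.28 on the log2 scale (SE, edgeR adjusted p = 0.0353, where 3.51% of all genes were called). The sum of the 10 PT markers moved the same way in these cells. It was 43133 to 92334 CPM in control males and 19515 to 44277 CPM in DN males. How the 10 markers moved singly was not examined. In females they summed to 9396 to 15128 CPM in control and 7108 to 11729 CPM in DN, below every male library, and the part of this marker shift in the sex and DN differences of the PT was not tested. Among the females DN was higher by 0.80 ± 0.38 (SE, edgeR adjusted p = 0.6). The DN effect in males minus that in females was −1.91 ± 0.47 and did not pass the test (SE, edgeR adjusted p = 0.0882). The male call was lost in 7 of 16 leave-one-out fits, reaching an adjusted p of 0.195 when control male 6 weeks replicate 1 was dropped, as well as on the larger barcode list alone (0.103) and without its term (0.148). The S2-S3 type joined 2 clusters, with Cyp4a14 and Slc22a6 among the leading genes of the first and Bhmt and Hao2 among those of the second, and the share of cells in the first was 55.8% in control females, 42.9% in control males, 47.5% in DN females and 55.5% in DN males. The order of the sexes was the same in each. In the first cluster Akr1b3 had 5.71 to 13.9 CPM in control females and 84.4 to 163 CPM in control males, and in the second 6.19 to 16.5 and 122 to 220 CPM. The DN males had 32.4 to 91.2 CPM in the first cluster, which overlaps the control males, and 36.4 to 115 CPM in the second, where every DN male was below every control male. The DN females had 12.3 to 19.9 and 9.01 to 32.5 CPM.

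**Figure D5:**
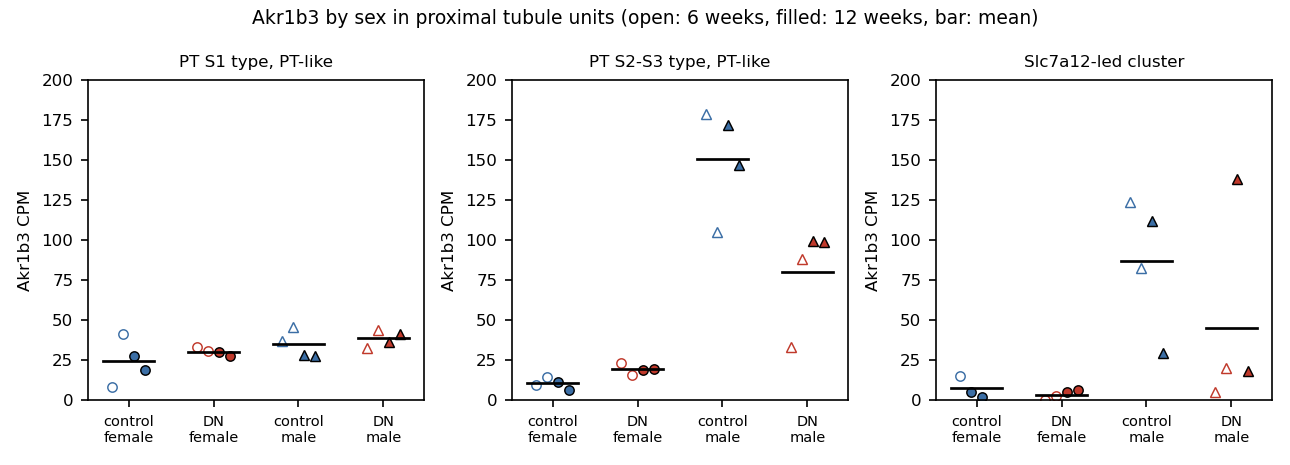
Akr1b3 in CPM (vertical axes, from 0) in each library by sex and genotype, in S1-type and S2-S3-type PT-like cells and in the Slc7a12-led cluster. Open symbols are 6 and filled symbols 12 weeks, and bars are means. In S2-S3-type cells control males lie at 105 to 179 CPM, DN males at 33.4 to 99.5 CPM and all females at or below 23.3 CPM, while the groups overlap in S1-type cells.

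In the PT-like cells as a whole 6 of the 10 genes differed between male and female controls, where 20.9% of all tested genes did. In DN 1, Akr1b3, did so (3.74% of all tested genes). Hk2 was too low in these cells to be tested. In the other 14 classes there were 0 such calls among the members in either genotype (0.143% and 0.0744% of all pairs). Txnip was lower in control males than in control females (−1.41 ± 0.31, SE, edgeR adjusted p = 0.00494). Its levels were 27.5, 117, 43.1 and 70.8 CPM in the control females and 22.2, 47.0, 24.9 and 34.1 CPM in the control males, which overlap through the libraries of the smaller barcode list. Ldha was higher in control males (0.91 ± 0.16, SE, edgeR adjusted p = 0.00112), with 364, 225, 403 and 291 CPM in the females and 415, 406, 423 and 364 CPM in the males. Pfkp, Aldoa and Khk were called higher in control males with log2 fold changes of 0.91, 0.52 and 0.45 (edgeR adjusted p = 0.0457, 0.0404 and 0.0447), but none of these 3 held without the barcode-list term or on the larger list alone, and Aldoa and Khk turned sign without it (−0.05 and −0.03). The Ldha and Txnip calls held on the larger list alone but not without the term, where they were 0.35 (edgeR adjusted p = 0.617) and −0.95 (edgeR adjusted p = 0.216), and the Txnip call was also lost without control female 6 weeks replicate 2 (edgeR adjusted p = 0.0786). All male libraries were of the larger list, so the term is set by the females alone. In DN males against control males, Akr1b3 (−1.03 ± 0.25, SE, edgeR adjusted p = 0.0239) and Pfkp (−1.11 ± 0.25, SE, edgeR adjusted p = 0.0158) were lower in PT-like cells, where 4.73% of all genes were called. Without the barcode-list term neither passed (Akr1b3 edgeR adjusted p = 0.119). Akr1b3 was lost in 3 of 16 leave-one-out fits (without control male 6 weeks replicate 1, control male 12 weeks replicate 1 or DN male 6 weeks replicate 1, adjusted p = 0.0844, 0.0843 and 0.082) and Pfkp in 2 (without control or DN male 6 weeks replicate 1, adjusted p = 0.0759 and 0.0627). Pfkp had 9.69, 8.50, 6.56 and 6.40 CPM in the control males and 2.52, 4.41, 4.26 and 4.21 CPM in the DN males.

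The Slc7a12-led cluster, which shared the high Sord (430 CPM) and Khk (863 CPM) of the PT, gave 2 further calls between DN and control within an age. Of all its genes 1.17% were called at 12 weeks and 1.57% at 6 weeks. Pfkp at 12 weeks had 32.3, 50.3, 16.2 and 29.6 CPM in control and 9.51, 7.34, 7.64 and 3.59 CPM in DN, without overlap (−2.16 ± 0.49, SE, edgeR adjusted p = 0.0351), a call lost in 6 of 16 leave-one-out fits (at most 0.303, without DN female 12 weeks replicate 2). Among the females, with both ages joined, Pfkp was also lower in DN (−2.78, edgeR adjusted p = 0.00633, where 2.44% of its genes were called). That call held in 14 of 16 leave-one-out fits. Akr1b3 at 6 weeks had 15.2, 124 and 82.5 CPM in control and 0, 2.52, 5.11 and 20.2 CPM in DN (−3.52 ± 0.72, SE, edgeR adjusted p = 0.0153), a call lost without DN male 6 weeks replicate 1 (adjusted p = 0.238). The control side was 1 female, the lowest of these, and 2 males, against 2 and 2 in DN. Akr1b3 in this cluster was also higher in control males (29.6 to 124 CPM) than in control females (1.93 to 15.2 CPM), by 3.86 on the log2 scale (edgeR adjusted p = 0.0226, where 4.51% of its genes were called), a call lost in 3 of 16 leave-one-out fits (at most 0.285, without control female 12 weeks replicate 2). At 12 weeks it had 1.93 to 112 CPM in control and 4.75 to 138 CPM in DN, higher in 2 pairs and lower in 2 (−0.03 ± 0.61, SE, edgeR adjusted p = 0.999). Ldha was higher in control males than in control females here as well (1.39, edgeR adjusted p = 0.0155, the same 4.51% being called). That call held in 13 of 16 leave-one-out fits and in 1 of 3 other fits. This cluster held 26 to 78 cells in each control library used and could not be named from its markers. Its summed PT markers were 40527 to 135696 CPM in control and 4812 to 58310 CPM in DN, and their part in these calls was not tested.

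The remaining genes of these pathways were read in the same way over the 15 classes. Among 22 other glycolytic enzymes, of which 19 were tested, 4 had calls at 12 weeks (4 of 202 pairs higher and 2 lower, where 1.03% of all pairs were called, median 0.06). Eno3, the muscle enolase, rose in smooth muscle and renin-like cells at 6 weeks (1.96 ± 0.27, SE, edgeR adjusted p = 0.000177) and 12 weeks (2.72 ± 0.29, SE, edgeR adjusted p = 1.01e-06), from 7.74 to 82.5 CPM in control to 220 to 343 CPM in DN at the later age. It also rose in podocyte-like cells at 12 weeks (2.84 ± 0.60, SE, edgeR adjusted p = 0.0168). Ldhb, the heart-type partner of Ldha, fell in smooth muscle and renin-like cells (−0.76 ± 0.18, SE, edgeR adjusted p = 0.0234) and in mesangial-like cells (−0.75 ± 0.21, SE, edgeR adjusted p = 0.0395) at 12 weeks. Gapdh rose in smooth muscle and renin-like cells (0.63 ± 0.16, SE, edgeR adjusted p = 0.0414) and Aldoc in PC-like cells (0.76 ± 0.16, SE, edgeR adjusted p = 0.0178). In smooth muscle and renin-like cells, Ldha, Gapdh and Eno3 thus rose and Ldhb fell at 12 weeks. That class joined a cluster led by Ren1, Tagln and Acta2 and another led by Rgs5, Aspn and Rgs4. The part of a change in their mix was not tested.

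Of 16 genes of pyruvate and lactate handling, Pdk1, a kinase that inhibits pyruvate dehydrogenase, had calls and no other did, 1 of 178 pairs at each age, where 0.271% of all pairs were called at 6 and 1.03% at 12 weeks. It rose in PT-like cells at 6 weeks (1.94 ± 0.29, SE, edgeR adjusted p = 0.00477) and at 12 weeks (2.20 ± 0.29, SE, edgeR adjusted p = 0.00171), from 1.16 to 7.36 CPM in control to 8.29 to 21.5 CPM in DN at 6 weeks. The summed PT markers of the PT-like cells were lower in DN at both ages, with medians of 32337 and 13172 CPM at 6 weeks (10488 to 68612 in control and 7481 to 23731 in DN) and 39103 and 20919 CPM at 12 weeks, and their part in the Pdk1 result was not tested. Of 8 gluconeogenesis genes, 1 was called at 12 weeks (1 of 86 pairs, against the same 1.03%). This was Ppargc1a, which fell in mesangial-like cells (−1.62 ± 0.46, SE, edgeR adjusted p = 0.0431), where 6.08% of all genes were called. At 6 weeks 0 of 86 pairs passed, and 14 had an unadjusted p below 0.05 (6.03% of all pairs). The 8 other polyol and fructose genes, among them Tkfc and Akr1a1, gave 0 calls at either age (11 of 78 pairs at 6 and 15 at 12 weeks had an unadjusted p below 0.05, against 6.03% and 8.77% of all pairs). Of 14 hypoxia response genes, 2 were called at 12 weeks (3 of 168 pairs, where 1.03% of all pairs were called) and none at 6 (13 of 168 at an unadjusted p below 0.05, against 6.03% of all pairs). In the Slc7a12-led cluster, outside these classes, 1 of the 12 hypoxia genes tested was called higher at each age, and at 6 weeks 1 osmotic response gene was called higher and 1 gluconeogenesis gene lower. Of all genes of that cluster 0.569% were called higher and 1.0% lower at 6 weeks, and 0.525% higher at 12 weeks. In the Rgcc-led cluster 1 osmotic response gene was called higher at 12 weeks, where 0.264% of all its genes were. Adm rose in podocyte-like (1.25 ± 0.24, SE, edgeR adjusted p = 0.00895) and mesangial-like cells (1.55 ± 0.45, SE, edgeR adjusted p = 0.0494), and Egln3 rose in smooth muscle and renin-like cells (2.92 ± 0.52, SE, edgeR adjusted p = 0.00138).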

How the data were processed

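Single-cell suspensions of kidneys from 16 mice were sequenced with 3 prime droplet kits, of different versions by the study's methods. The labels do not give the version used for each library. Per the labels, reads were processed by the authors with Cell Ranger 3.0.2 on mm10, and the deposited values are raw UMI counts per gene and barcode. Of 116439 barcodes, 94436 had 200 to 7000 genes and at most 50% mitochondrial UMIs. Cells were clustered on 2000 variable genes, 30 principal components and Harmony (20 neighbours, Leiden resolution 1.0), 7063 doublets were removed by markers of other lineages, and clusters were named from marker lists. The members and the other listed genes were left out of the variable genes. A limit of 20% mitochondrial UMIs was then applied to classes outside the tubule, which left 85990 cells. Of the markers, 1 is not reported here. The class names were rebuilt from the counts and may differ from the study's.

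Counts were summed per library and class (at least 10 cells). The tests were edgeR 4.0.16 quasi-likelihood fits in R 4.3.3 (TMM, filterByExpr minimum count of 10, barcode list as a term) on all genes of a class, with a Benjamini-Hochberg threshold of 0.05. Levels between classes were compared on log2(CPM + 1) by sign-flip permutation tests within libraries. DESeq2 1.42.0, other normalizations, filters and clusterings, a block for the replicate number and leaving out each library were alternatives. The fitting code was tested on simulated data. Same-numbered libraries of the 2 genotypes deviated together (r = 0.906 and 0.887 in females and 0.661 and 0.753 in males at 6 and 12 weeks, over 8865 genes). The labels give a shared number only, so the pairing rests on these correlations. In females replicate 1 was of the smaller barcode list in both genotypes, so r there does not test a pairing beyond that list. In males r was 0.479 and 0.592 in PT-like and 0.285 and 0.506 in mesangial-like cells at 6 and 12 weeks. Each library held 10510855 to 125551519 UMIs, and intervals and floors cover counting error only. All 10 members are named, at most 4 called genes of each other list for a contrast (those called in the most classes, ties by the lowest adjusted p), and the 3 genes most like each member. The sex contrasts, the PT segments and the clusters called by a leading gene were added after the data were seen. The members and lists were chosen with earlier results of these data known. Promoters were 300-base windows from RefSeq.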

Additional observations from a re-analysis of the deposited data

Results flagged for a closer look

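Of 118 groups of 4 libraries tested for a library far from the others, 4 were flagged, all for Akr1b3, and chance flags about 1 in 20. Control female 6 weeks replicate 2 had 958 CPM in PC-like cells, where the other controls had 86.7 to 164 CPM, and 1800 CPM in dLOH-like cells, where the others had 220 to 349 CPM. Control male 12 weeks replicate 1 had 170 CPM in PC-like cells, against 87.1 to 95.0 CPM. DN male 12 weeks replicate 1 had 138 CPM in the Slc7a12-led cluster, against 4.75 to 17.9 CPM. The Aldoa feature that was not used held 15 UMIs over all classes and clusters.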

How the results depend on the processing

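The number of gene and class pairs called between DN and control at 12 weeks (4, all Ldha) became 12 with no filter on low counts, 14 with the replicate block, 7 with at most 20% mitochondrial UMIs, 2 without doublet removal, 2 at Leiden resolution 2.0, 0 without the barcode-list term and 0 on the larger barcode list only. It was 0 to 5 when 1 library was left out, and 0 without any of control female 12 weeks replicate 1 or 2, control male 12 weeks replicate 2, DN female 12 weeks replicate 1 or DN male 12 weeks replicate 1. At 6 weeks the count (0) became 1 with DESeq2, 6 with no filter and 4 with the replicate block, and was 0 to 1 with a library left out. With no filter the count became 6 for age in control, 1 for age in DN and 2 for the difference between the ages, and each stayed at 0 with any library left out, as did the contrast of PT- with mesangial-like cells. Shares over all pairs are given only for the main, DESeq2 and blocked fits, so the other counts here cannot be set against all genes. Of the neighbouring classes, 39 pairs differed, 23 on the larger barcode list only and 27 to 35 with a library left out. The pairing block changed no call of the members beyond those given in the text. Without the barcode-list term the male against female difference in control PT-like cells turned to −0.03 for Khk (edgeR adjusted p = 0.986) and −0.05 for Aldoa (edgeR adjusted p = 0.977). The cause of these changes was not tested. The highest class of a gene was the same in all but 4 of 220 fits, in which Ldha led in PC- in place of dLOH-like cells. Libraries of the smaller list, with at most 21728793 UMIs, limit low levels such as Hk2 and Pfkp in PT-like cells.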
